A study of Bubalus bubalis with 6 samples.

Results

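The genes described here encode transcription factors of 6 families (FOX, SOX, GATA, T-box, KLF and bHLH, with the ID inhibitors of bHLH factors), measured for DNA methylation in sperm of water buffalo (Bubalus bubalis). Members were chosen by gene name alone: 218 of the 177440 probes of the array carried a name of these families, and these probes belonged to 56 of 7932 named genes. Of the 56 names, 55 matched a buffalo gene symbol in RefSeq. The 1 exception, TWISTNB, was picked up by the start of its name; it is known as a subunit of RNA polymerase I and not as a bHLH factor, and it is counted here apart from the families. FOX genes held 41 probes of 13 genes, SOX genes 22 of 6, GATA genes 31 of 3, T-box genes 43 of 10, KLF genes 16 of 8 and bHLH and ID genes 64 of 15.

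The study asked how sperm DNA methylation differs between 3 subfertile bulls (numbers 1, 4 and 5) and 3 high-fertile bulls (numbers 2, 3 and 5), with 1 array per bull. No treatment, age or genotype other than the fertility class is given in the labels, and they do not say how the classes were assigned. Methylated DNA from frozen semen was enriched with an antibody against 5-methylcytosine and hybridised together with the bull's own input DNA. A level is the log2 ratio of immunoprecipitated (IP) to input signal, with the array's median set to 0. It orders stretches of DNA by how much of them the antibody bound and does not give a percentage of methylated cytosines.

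FOX factors bind DNA through a forkhead domain, SOX factors through an HMG box, GATA and KLF factors through zinc fingers and T-box factors through the domain they are named for. bHLH factors bind DNA as dimers, and ID proteins, which lack the basic stretch that touches DNA, tie up their partners. Most members direct the fate of somatic cells in the embryo or adult. In human and mouse sperm, the CpG-rich promoters of many such genes are known to carry little DNA methylation and to keep nucleosomes.

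The first set of sequences shows the extremes of level among the factor probes: the FOXO4 and GATA2 probes had the highest means over the 6 bulls and the OLIG1 and KLF6 probes the lowest. Each probe is 60 bases long, capitals mark CpGs, and no strand or genome build is given in the sources used here.
FOXO4, chrX:49339347-49339406: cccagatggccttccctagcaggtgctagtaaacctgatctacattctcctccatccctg
GATA2, chr22:61197233-61197292: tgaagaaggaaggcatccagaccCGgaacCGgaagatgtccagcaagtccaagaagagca
OLIG1, chr1:1586220-1586279: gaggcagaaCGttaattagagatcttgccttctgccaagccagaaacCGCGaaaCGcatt
KLF6, chr13:44752850-44752909: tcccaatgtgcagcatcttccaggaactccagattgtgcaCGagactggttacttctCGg
The FOXO4 probe, at a mean of 1.53, holds 0 CpGs, and the OLIG1 probe, at -1.19, holds 4. Sonicated fragments were several times longer than a probe, so the signal of a probe also reflects the CpGs beside it.

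A second set holds the 4 tested probes of NEUROD1, shown because their levels lie far apart, and the 4 of FOXC2, shown because 3 of them overlap end to end and parted the bulls by scan session. Both genes were picked for printing after their values were seen.
NEUROD1, chr2:15369338-15369397: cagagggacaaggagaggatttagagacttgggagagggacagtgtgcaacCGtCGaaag
NEUROD1, chr2:15371578-15371637: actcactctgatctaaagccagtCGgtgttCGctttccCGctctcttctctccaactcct
NEUROD1, chr2:15374797-15374856: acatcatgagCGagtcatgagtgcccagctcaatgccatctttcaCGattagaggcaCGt
NEUROD1, chr2:15374877-15374936: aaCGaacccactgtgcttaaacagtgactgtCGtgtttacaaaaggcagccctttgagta
FOXC2, chr18:11625701-11625760: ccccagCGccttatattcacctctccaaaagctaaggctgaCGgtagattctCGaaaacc
FOXC2, chr18:11626541-11626600: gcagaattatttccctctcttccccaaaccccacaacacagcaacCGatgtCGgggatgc
FOXC2, chr18:11626586-11626645: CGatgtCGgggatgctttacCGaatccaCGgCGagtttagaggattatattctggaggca
FOXC2, chr18:11626621-11626680: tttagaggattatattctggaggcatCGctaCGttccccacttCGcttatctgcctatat

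The third set holds, with the KLF6 probe above, the 3 probes with the smallest unadjusted p in each direction of the fertility comparison. The first 3 lines had lower levels in subfertile bulls and the last 2 higher.
FOXN3, chr10:103876506-103876565: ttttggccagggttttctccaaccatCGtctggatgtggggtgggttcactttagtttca
ID2, chr11:91380425-91380484: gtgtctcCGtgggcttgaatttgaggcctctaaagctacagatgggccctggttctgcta
GATA3, chr13:14702004-14702063: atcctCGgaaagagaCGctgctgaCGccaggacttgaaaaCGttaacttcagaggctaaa
KLF11, chr11:90323301-90323360: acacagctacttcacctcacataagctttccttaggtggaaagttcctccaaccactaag
TBX21, chr19:39969061-39969120: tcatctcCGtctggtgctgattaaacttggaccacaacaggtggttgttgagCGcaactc
The files give no promoter, exon or intron class for a probe, so no position within a gene can be stated.

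A probe was tested where all 6 arrays had an input signal well above background. This held for 126 of the 218 factor probes (57.8%), against 62.4% of all probes. Untested factor probes were poorer in CpGs: they held 1.63 CpGs on average, against 2.68 in tested ones. The filter went the same way over the whole array, with 2.53 CpGs in all probes and 2.82 in all tested ones. A gene region is the mean of at least 3 tested probes of a gene, and 16 of the 56 genes had one. Another 29 genes had 1 or 2 tested probes. The remaining 11 (FOXP1, FOXP2, FOXS1, GATA4, ID3, KLF5, KLF7, KLF12, NEUROD6, SOX30 and TBX19) had none. IP signal too was well above background in every bull at 54.0% of all tested probes. Among the 126 tested factor probes this held for 73 (57.9%). The OLIG1 probe printed above is not among them: its IP signal did not reach that level in any bull of the first scan session (defined next), so its lowest values are bounds.

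The 6 arrays parted by scan date, which the file headers give: high-fertile bulls 2 and 3 and subfertile bull 4 were scanned in a first session, and subfertile bulls 1 and 5 and high-fertile bull 5 later. Across the 16 factor regions, bulls of the same session correlated at 0.56 to 0.82, whatever their fertility, and bulls of different sessions at -0.04 to 0.45. Across single factor probes the ranges overlapped, at 0.30 to 0.82 within a session and 0.27 to 0.35 between sessions. Over all probes they did not, at 0.35 to 0.80 and 0.13 to 0.29. Regions and probes share their arrays, so these values are a description. IP signal was well above background at 69.7% to 82.1% of factor probes on the later arrays and at 36.2% to 58.7% on the first ones. Over all probes the shares were 76.5% to 85.2% and 37.6% to 58.6%. Gene names stand only in the 3 files of the first session and were carried to the other 3 through identical probe names and sequences. The labelled cell, sperm, could be checked only on methylation: of 13 germ-cell markers 1 had a gene region, HSPA2, of 6 leukocyte markers 1, RUNX3, and of 6 epithelial markers 2, ESRP1 and DSP. None of these 4 regions passed the fertility test, and a DNA methylation array does not show which cells the DNA came from.

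Most factor regions lay below the array's median. Of the 16 regions, 1 had a mean over the 6 bulls above 0, against 24.6% of all 737 regions, and the median of the 16 means was -0.34, against -0.18 over all regions. In single bulls the gap between both medians was -0.10, -0.15 and -0.27 in subfertile bulls 1, 4 and 5 and 0.03, 0.03 and -0.21 in high-fertile bulls 2, 3 and 5. The gap averaged -0.11 ± 0.12 (SD, n = 6), so it was about as large as its spread between bulls, and 4 of 6 bulls had the factor regions lower.

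The highest factor region was GATA2, a factor of blood stem cells. Its 5 probes averaged 0.53, -0.09 and 0.42 in subfertile bulls 1, 4 and 5, against 0.45, -0.06 and 0.55 in high-fertile bulls 2, 3 and 5. The means were 0.29 ± 0.33 in subfertile and 0.31 ± 0.32 in high-fertile bulls (SD, n = 3 each). In each group 1 bull lay just below 0, and both of these bulls were of the first session. ATOH8, a bHLH factor, and SOX14, a SOX gene of brain interneurons, came next. ATOH8 had 0.08, 0.07 and -0.04 in the subfertile bulls and 0.00074, 0.04 and -0.17 in the high-fertile bulls. Its place rested on 3 probes. With nearby unnamed probes added it averaged -0.24 over 15 probes, and only subfertile bull 1 lay above 0. SOX14 averaged -0.06 over 42 probes in the same way. SOX14 had -0.31, 0.02 and -0.42 in the subfertile bulls and -0.16, 0.53 and -0.58 in the high-fertile bulls, the widest spread among high-fertile bulls of any factor region (SD 0.56).

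The lowest region was OLIG1, a bHLH factor of oligodendrocytes. Its mean over 6 bulls was -0.73, which placed it in the lowest 3.53% of all regions. FOXA3, a forkhead factor of liver, had -0.27, -0.71 and -0.56 in subfertile bulls 1, 4 and 5 and -0.24, -0.68 and -0.67 in high-fertile bulls 2, 3 and 5. FOXL2, which keeps granulosa cell identity in the ovary, had -0.25, -0.64 and -0.52 in the subfertile bulls and -0.41, -0.41 and -0.52 in the high-fertile bulls. All 3 genes lay below 0 in all 6 bulls, and the groups overlapped in each. In the first session, IP signal was well above background at 7, 9 and 8 of 12 spots of OLIG1, FOXA3 and FOXL2. In the later session this held at 12, 11 and 11 of 12, so the sizes of the low levels are uncertain mainly in the first. The regions of TBX15, ID2, FOXJ1, TBX20 and NEUROD1 also lay below 0 in every bull. The median SD between bulls was 0.24, and neighbours in the order of levels differed by less than that, apart from GATA2 and ATOH8.

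**Figure D1:**
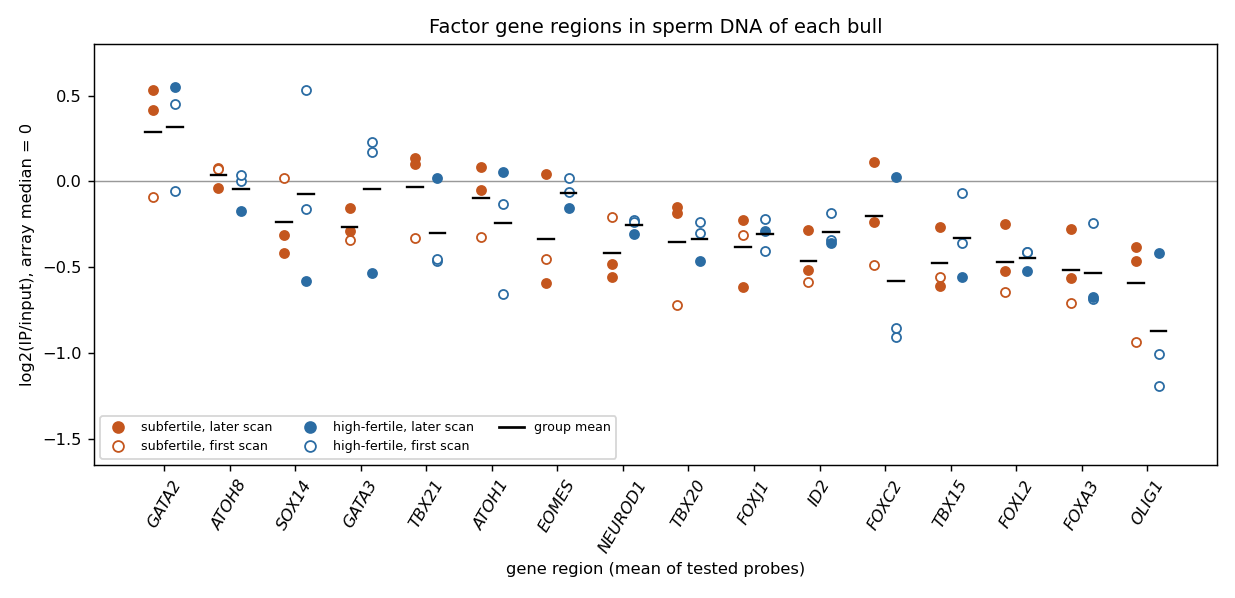
The level of each factor region, as log2(IP/input) with the array median at 0, is plotted for each bull, subfertile left of high-fertile for each gene, with black bars for group means of 3 bulls. Filled points are bulls of the later scan session; GATA2 stands highest and OLIG1 lowest, and subfertile and high-fertile points overlap in all 16 regions.

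Further regions lay between these. FOXJ1, the forkhead factor that switches on genes of motile cilia, had -0.23, -0.31 and -0.61 in subfertile bulls 1, 4 and 5 and -0.41, -0.22 and -0.29 in high-fertile bulls 2, 3 and 5. TBX20, a T-box factor of the heart, had -0.15, -0.72 and -0.18 in the subfertile bulls and -0.30, -0.24 and -0.46 in the high-fertile bulls. TBX15, a T-box factor of skeleton and muscle, had -0.27, -0.56 and -0.61 in the subfertile bulls and -0.36, -0.07 and -0.56 in the high-fertile bulls. Within each of these, 1 bull stood well apart from the others of its group, and it was not the same bull number throughout. ATOH1, a bHLH factor of inner-ear hair cells, and the others are described with the fertility comparison.

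Families differed in their probe medians, though probes of a gene lie close together and are not independent. Over the mean of 6 bulls, the median was -0.81 for the 6 tested KLF probes, -0.33 for the 44 bHLH and ID probes, -0.27 for the 24 T-box probes and -0.25 for the 24 FOX probes. It was -0.06 for the 10 SOX probes and -0.04 for the 17 GATA probes, against -0.16 over all tested probes. The 6 KLF probes came from 5 genes, none with a region, and all 5 genes lay below 0: KLF6 at -1.10, KLF10 at -1.01, KLF11 at -0.62, KLF15 at -0.46 and KLF9 at -0.44. Of all tested probes, 34.6% had a mean above 0. IP signal was well above background in every bull only at the KLF15 and KLF9 probes. The low values of KLF6, KLF10 and KLF11 are therefore uncertain, and KLF6 had -2.35 in high-fertile bull 2. KLF6, a zinc-finger factor, also lay low over a wider stretch, with a mean of -0.55 over 20 probes once nearby unnamed ones were added. At the other end of the genes with 1 or 2 tested probes stood FOXO4, a forkhead factor held in the cytoplasm by insulin signalling, at 0.68, and SOX6 at 0.64. FOXO4 was above 0 in all 6 bulls (0.09 to 0.99), but its 2 probes lie far apart and were unlike, the first being the CpG-free probe printed above. SOX6 rested on 1 probe and was below 0 in subfertile bull 4, at -0.19, and above 0 in the other bulls.

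Levels were also set against the number of CpGs in a probe. The correlation of CpG number with level was -0.01 across the 126 factor probes and -0.16 across all 110686 tested probes. Probes of a gene overlap or lie close together, and the difference between both correlations was not tested. The 14 factor probes with 5 or more CpGs had a median of -0.09, against -0.29 for all such probes. By session, the correlation across factor probes was 0.12 on the later arrays and -0.14 on the first ones, and for all probes it was -0.05 and -0.20. Without the filter on input signal, the correlation across all 218 factor probes was -0.28, and no unfiltered value over all probes stands beside it.

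**Figure D2:**
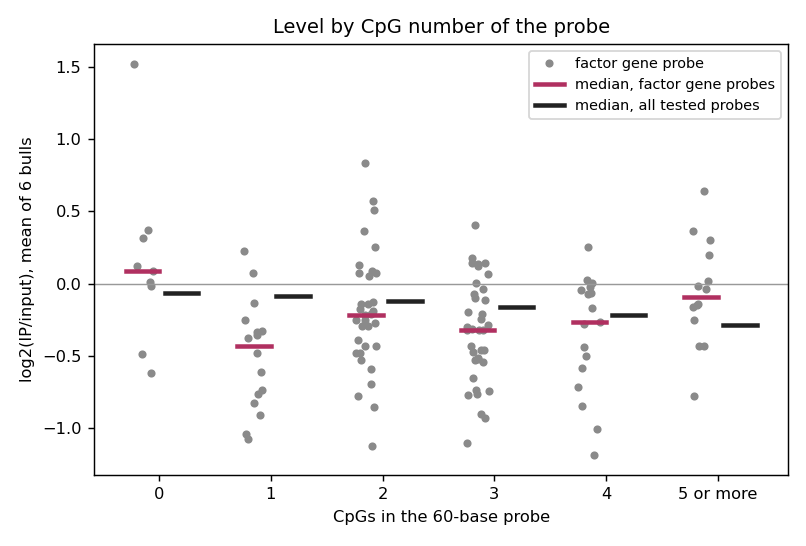
Each grey point is a tested factor probe, by its number of CpGs (x axis, 5 or more joined) and its level as the mean of 6 bulls (y axis, log2(IP/input)); red bars are medians of factor probes and black bars medians of all tested probes. Black bars step down from 0 to 5 or more CpGs, and the red bars do not; the CpG-free probe at 1.53 belongs to FOXO4.

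No factor region passed the test of subfertile against high-fertile bulls. limma called 0 of 16 factor regions and 0 of all 737 (0% called, smallest Benjamini-Hochberg adjusted p = 0.9999), and at an unadjusted p under 0.05 it found 0 of 16 factor regions and 6 of 737. The 3 subfertile bulls lay all above or all below the 3 high-fertile bulls in 0 of 16 factor regions and in 2.99% of all regions. The median difference, subfertile minus high-fertile, was -0.03 over factor regions, with 6 above 0 and 10 below, and 0.08 over all regions. Standard errors of the 16 differences were 0.20 to 0.30, and all 16 of the 95% confidence intervals spanned 0.

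Differences toward a higher level in subfertile bulls were led by FOXC2, a forkhead factor of lymphatic vessels and mesenchyme. FOXC2 had 0.11, -0.48 and -0.23 in subfertile bulls 1, 4 and 5, against -0.91, -0.85 and 0.03 in high-fertile bulls 2, 3 and 5. High-fertile bulls 2 and 3 were lowest, and high-fertile bull 5 lay among the subfertile bulls. The difference was 0.38 (95% confidence interval -0.31 to 1.06). It was 0.15 with the session as a block, -0.09 in the later session alone, and 0.21 (without high-fertile bull 2) to 0.68 (without high-fertile bull 5) when 1 bull was left out.

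TBX21, the T-bet factor of helper T cells, had 0.14, -0.33 and 0.10 in subfertile bulls 1, 4 and 5, against -0.46, -0.45 and 0.02 in high-fertile bulls 2, 3 and 5. The difference was 0.27 (-0.28 to 0.81), and 0.11 with the session as a block. OLIG1 differed by 0.28 (-0.34 to 0.90), by 0.08 with the session as a block and by -0.0052 in the later session alone. ATOH1 had -0.05, -0.32 and 0.09 in the subfertile bulls and -0.65, -0.13 and 0.06 in the high-fertile bulls. Its difference of 0.15 (-0.42 to 0.72) rested on high-fertile bull 2, without which it was -0.06, and it was 0.01 with the session as a block. In FOXC2, OLIG1, TBX21 and ATOH1 the 3 highest bulls were the 3 of the later session, 2 of them subfertile.

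EOMES, a T-box factor of early embryo and lymphocytes, led the differences toward a lower level in subfertile bulls. It had 0.04, -0.45 and -0.59 in subfertile bulls 1, 4 and 5, against 0.02, -0.06 and -0.16 in high-fertile bulls 2, 3 and 5. Subfertile bulls 4 and 5 lay below all others, and subfertile bull 1 was the highest of the 6. The difference was -0.27 (-0.79 to 0.26), with -0.14 when subfertile bull 5 was left out and -0.45 when subfertile bull 1 was.

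GATA3, a factor of helper T cells, mammary gland and trophoblast, had -0.16, -0.34 and -0.29 in subfertile bulls 1, 4 and 5, against 0.17, 0.23 and -0.54 in high-fertile bulls 2, 3 and 5. The subfertile bulls lay close together (SD 0.10), and the high-fertile bulls spread widely (SD 0.42), with bull 5 the lowest of all. The difference over 12 probes was -0.22 (-0.79 to 0.36), and in the later session alone it was 0.31. Leaving out high-fertile bull 3 gave -0.08, leaving out bull 5 of the same group gave -0.46, and the session as a block gave -0.12. ID2, an inhibitor of bHLH factors, rested on 18 probes, the most of any factor region. It had -0.29, -0.58 and -0.51 in the subfertile bulls and -0.34, -0.19 and -0.36 in the high-fertile bulls, a difference of -0.17 (-0.63 to 0.29). NEUROD1, a bHLH factor of neurons and pancreatic islets, had -0.55, -0.21 and -0.48 in the subfertile bulls and -0.22, -0.23 and -0.30 in the high-fertile bulls, a difference of -0.16 (-0.62 to 0.30).

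**Figure D3:**
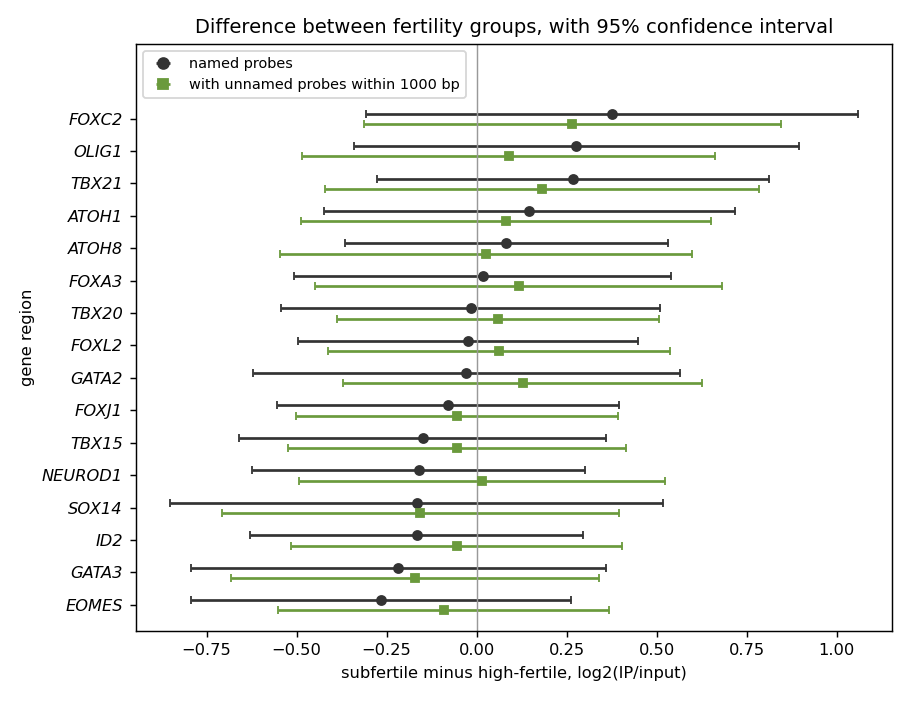
The difference in level between subfertile and high-fertile bulls is given for each factor region with its 95% confidence interval (limma, 3 bulls per group), from the probes that carry the gene name (black circles) and with unnamed probes within 1000 bp added (green squares). Each interval spans 0, and the green points of OLIG1, EOMES and NEUROD1 lie closer to 0 than the black ones.

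Single probes gave the same outcome. limma called 0 of 126 factor probes and 0 of all 110686 tested probes (0% called), and 3 factor probes had an unadjusted p under 0.05, against 1.84% of all tested probes. Groups did not overlap at 8 of 126 factor probes, close to the 5.78% of all tested probes. The printed FOXN3 probe, in the gene of a forkhead repressor, had -0.66, -0.47 and -0.61 in subfertile bulls 1, 4 and 5, against 0.73, 0.35 and -0.16 in high-fertile bulls 2, 3 and 5. The printed GATA3 probe had -0.48, -0.43 and -0.20 in the subfertile bulls and 0.30, 0.42 and 0.11 in the high-fertile bulls. At both probes all subfertile bulls lay below all high-fertile bulls, with differences of -0.89 (SE 0.32) and -0.65 (SE 0.29) and limma adjusted p = 1.0 each. IP signal was well above background in all 6 bulls at the GATA3 probe and in 2 of 3 subfertile and 3 of 3 high-fertile bulls at the FOXN3 probe.

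The printed ID2 probe, with a difference of -1.25 (SE 0.52), ranged from -2.05 to -0.43 in subfertile bulls and from -0.61 to 1.002 in high-fertile bulls. Its IP signal was well above background in 2 of 3 subfertile and 1 of 3 high-fertile bulls, and in 0 of 3 bulls of the first session, so its values in that session are only bounds. Toward a higher level in subfertile bulls, the KLF11 probe differed by 0.89 (SE 0.43), the KLF6 probe by 0.86 (SE 0.47) and the TBX21 probe by 0.78 (SE 0.39). At the KLF11 probe IP signal was well above background in 2 of 3 subfertile and 1 of 3 high-fertile bulls, and at the KLF6 and TBX21 probes in 3 of 3 subfertile and 2 of 3 high-fertile bulls, so the sizes of these differences are uncertain. The KLF11 value was 0.43 without subfertile bull 4, which stood at 0.74 on that probe. The KLF6 value rested mostly on high-fertile bull 2, at -2.73: without that bull the difference was 0.28. The TBX21 probe overlaps a neighbour on each side, and high-fertile bulls 2 and 3 had -1.08 and -0.99 on it, while those neighbours had -0.08 and -0.16 on one side and -0.23 and -0.22 on the other.

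More factor regions passed between scan sessions than between fertility classes. With the fertility group in the same fit, limma called 2 of 16 factor regions, both higher in the later session, a share near the 14.0% of all regions called higher; 20.8% of all regions were called in either direction. FOXC2 had 0.11, -0.23 and 0.03 in the later bulls (subfertile 1 and 5, high-fertile 5), against -0.48, -0.91 and -0.85 in the first ones (subfertile 4, high-fertile 2 and 3). OLIG1 had -0.38, -0.46 and -0.42 in those later bulls and -0.94, -1.01 and -1.19 in the first ones. In both genes the sessions did not overlap, as in 6 of 16 factor regions and 45.9% of all regions.

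FOXC2 was higher by 0.67 (SE 0.20, limma adjusted p = 0.042) and OLIG1 by 0.60 (SE 0.18, limma adjusted p = 0.041) in the later session. TBX21 had a difference of 0.46 (limma adjusted p = 0.082) and SOX14 one of -0.57 (limma adjusted p = 0.10), and neither passed. Over all regions the median session difference was 0.17 and over factor regions 0.04. IP signal was well above background at 12 of 12 FOXC2 spots of the later session and 8 of 12 of the first, and at 12 of 12 and 7 of 12 for OLIG1; their part in the result was not tested. With arrays centred over the tested probes, the differences were 0.42 for FOXC2 (limma adjusted p = 0.14) and 0.36 for OLIG1 (limma adjusted p = 0.18), neither past the threshold. With normexp background correction FOXC2 passed, at 0.37 (limma adjusted p = 0.018), and OLIG1 did not, at 0.20 (limma adjusted p = 0.11), and without the filter on input signal neither gene did, at -0.020 for FOXC2 and 0.03 for OLIG1.

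**Figure D4:**
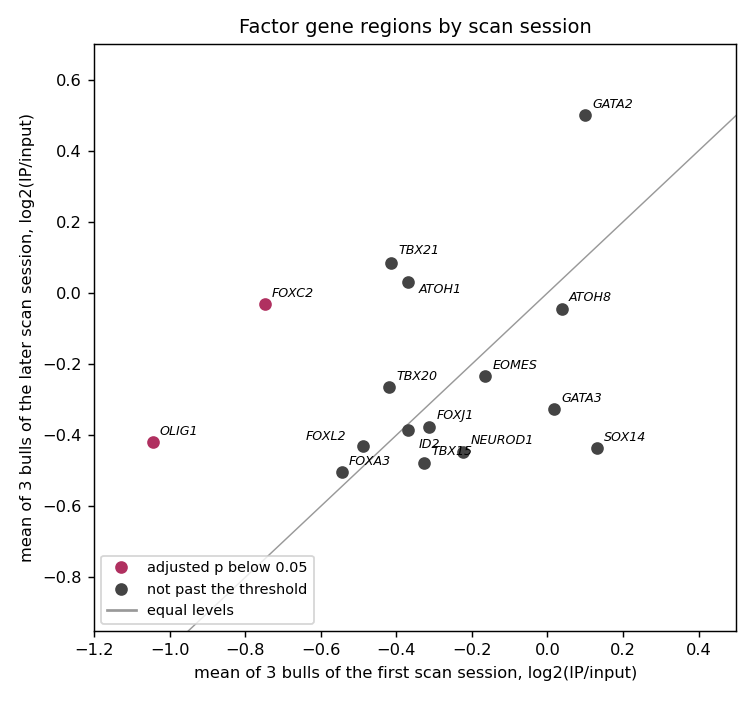
Each point is a factor region, by its mean level in the 3 bulls of the first scan session (x axis) and of the later session (y axis), in log2(IP/input); the line marks equal levels. FOXC2 and OLIG1, in red, lie farthest above the line, and SOX14 and GATA3 lie farthest below it. NEUROD1, TBX15, ATOH8, EOMES, FOXJ1 and ID2 also lie below it.

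Among single probes, 3 of 126 factor probes passed between sessions, against 8.08% of all tested probes. They lay in FOXC2, TBX20 and ID2. The printed FOXC2 probe with 5 CpGs had 0.73, 0.43 and 0.44 in the later bulls (subfertile 1 and 5, high-fertile 5), against -0.50, -1.14 and -0.93 in the first ones, a difference of 1.28 (limma adjusted p = 0.032). IP signal at this probe was well above background in 3 of 3 later bulls and 1 of 3 of the first ones, so its low side is poorly measured and the size is uncertain. The TBX20 probe at chr4:64286918-64286977 had 0.58, 0.84 and 0.77 in the later bulls, against -0.88, 0.19 and -0.44 in the first ones.

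Unnamed probes close to the named ones, added after the data were seen, gave a finer view of these stretches. With tested unnamed probes within 1000 bp of a named one joined to it, 34 of the 56 genes had a region, with 1093 probes in all. Their median level was -0.18, equal to the -0.18 over all 2728 such regions, and 6 of 34 lay above 0, against 27.2%. For the 16 genes that had a region from named probes, the median over wider regions was -0.26. Levels from named probes and from wider regions correlated at 0.72 across the 16 genes, which share probes. The fertility groups did not overlap in 0 of 34 wider regions (1.69% over all), and limma called 0 of them.

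NEUROD1 changed side with the wider set, at 0.21 over 24 probes against -0.33 over the 4 named ones. From about 500 to 1000 bp from the first probe, 13 probes averaged 0.42, 0.25 and 0.79 in subfertile bulls 1, 4 and 5 and 0.21, 0.73 and 0.68 in high-fertile bulls 2, 3 and 5. Near 6000 bp, 2 probes averaged -1.07, -0.68 and -1.31 in the subfertile bulls and -0.38, -0.87 and -0.81 in the high-fertile bulls. All 6 bulls were above 0 in the first stretch and below 0 in the second. The first stretch includes the first printed probe of the 4, and the second consists only of the last 2 printed ones. These hold 2 or 3 CpGs each, and no unnamed probe adds to the second stretch. On the last printed probe, IP signal was well above background in 2 of 3 subfertile and 1 of 3 high-fertile bulls. The size of its low level is therefore uncertain. Of the 4 named probes, 3 lay outside the high stretch.

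GATA2 showed a like contrast. Its 4 probes near 10000 bp, 1 of them the printed one, averaged 1.28, 0.50 and 1.21 in subfertile bulls 1, 4 and 5 and 0.64, 0.27 and 1.19 in high-fertile bulls 2, 3 and 5, above 0 in all. The 18 probes of the first 500 bp averaged 0.22, -0.07 and 0.08 in the subfertile bulls and -0.10, -0.28 and 0.05 in the high-fertile bulls. Over all 48 probes GATA2 averaged 0.06, against 0.30 from the 5 named probes.

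In FOXC2 the session difference lay in 1 stretch. The 25 probes from about 500 to 1000 bp averaged 0.08 in later bulls and -0.86 in the first ones, while the 7 probes before them averaged -0.34 and -0.49 and the 9 after them -0.59 and -0.38. ID2, with 154 probes over about 5000 bp, averaged -0.50, and 12 of its probes lay above 0. GATA3, with 116 probes, averaged -0.14, with -0.11, -0.33 and -0.24 in the subfertile bulls and -0.02, 0.23 and -0.37 in the high-fertile bulls. The bulls stood in the same order as with the 12 named probes of GATA3.

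**Figure D5:**
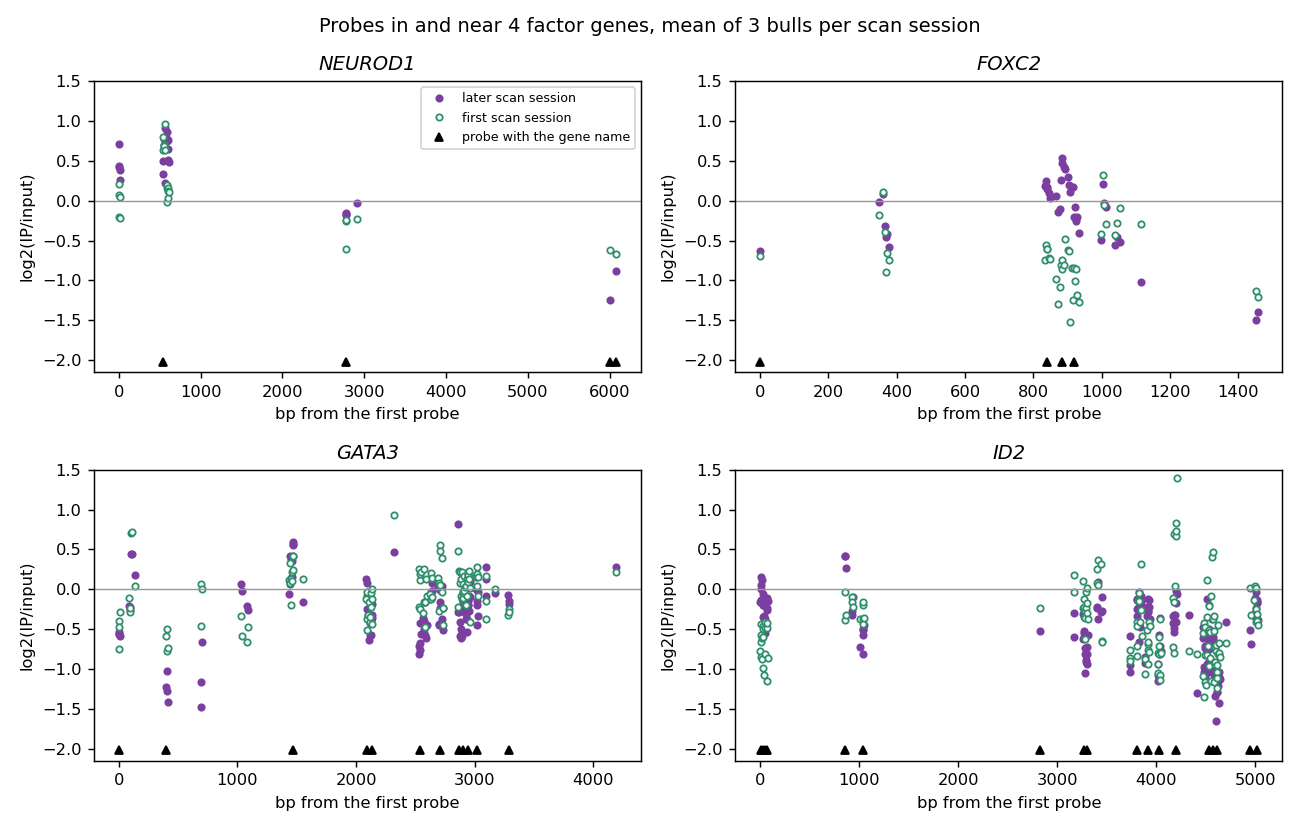
Levels (y axis, log2(IP/input)) of named and nearby unnamed probes are plotted by distance from the first probe of each gene (x axis, bp), as means of the 3 later (filled) and 3 first (open) bulls; triangles mark probes that carry the gene name. In both sessions the NEUROD1 probes from about 500 to 1000 bp average highest and those near 6000 bp lowest. The sessions part in the middle stretch of FOXC2.

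Across these wider regions, limma called 7 of 34 factor genes higher in the later session, against 33.5% of all such regions. They were SOX2, HES2, TBX21, FOXC2, HES6, ATOH1 and OLIG1. SOX2, a factor of pluripotent and neural stem cells, had 0.30, 0.11 and 0.11 in later bulls (subfertile 1 and 5, high-fertile 5), against -0.56, -0.42 and -0.44 in the first ones (subfertile 4, high-fertile 2 and 3). HES2, a bHLH repressor, had 0.18, 0.0038 and 0.22 in those later bulls and -0.55, -0.32 and -0.53 in the first ones.

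Genes that act with these factors gave no call either. Among E proteins and myogenic bHLH factors, 1 of 7 genes had a region, MYOD1. Of 18 Notch pathway genes, which act upstream of HES and HEY, 1 had a region, JAG1, a ligand; of 4 TLE corepressors 1, TLE3; and of 7 BMP signalling genes, upstream of ID, 1, BMP4, also a ligand. Neither the 5 GATA cofactors nor the 9 SP relatives of KLF had a region. None of the 4 regions passed the fertility test. JAG1 had -0.28, -0.54 and -0.41 in subfertile bulls 1, 4 and 5, against -0.94, -1.02 and -0.43 in high-fertile bulls 2, 3 and 5. The subfertile and high-fertile bulls overlapped, with high-fertile bull 5 again beside the subfertile bulls of its session. The JAG1 difference was 0.39 (SE 0.23), and 0.17 with unnamed probes added. BMP4 had 0.0032, 0.03 and 0.12 in the subfertile bulls and 0.21, 0.57 and -0.06 in the high-fertile bulls, a difference of -0.19 (SE 0.23). MYOD1 differed by -0.04 (SE 0.28) and TLE3 by 0.07 (SE 0.20).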

How the data were processed

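Methylated and input DNA of 6 bulls was hybridised on two-colour arrays, 1 per bull on 2 slides. The deposited intensities are processed signals from Agilent Feature Extraction 10.7.3.1, per the file headers; the header of subfertile bull 1 names a CGH protocol and the others a ChIP protocol. Per the labels, Cy5 holds IP and Cy3 input DNA, with no dye swap. The deposited log10 ratio per spot is IP over input. The deposited series table holds it as log2 values: it lay within 0.001 of the scanner ratio at 177439 of 177439 probes compared on each array. Column medians were -0.04 to 0, so not every column was centred exactly on its median. 

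From the processed signals, log2(IP/input) was computed and centred on the median of all 177440 non-control probes. Tested probes (110686) had input well above background on all 6 arrays and no non-uniformity flag. Regions of at least 3 tested probes (737) and single probes were fitted with limma 3.58.1 in R 4.3.3, two-sided, with Benjamini-Hochberg adjustment over all regions or probes and a threshold of 0.05. Scripts were tested on simulated data. Spots of different bulls were taken as replicates; the number of arrays limits the precision, and p-values measure the spread between bulls. Coordinates are the files' own. The RefSeq table (assembly NDDB_SH_1) served for names only.

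The members, lists and tests were chosen with earlier results of these data known. Named were all regions, the 4 smallest unadjusted p per direction (fertility) and 4 in all (session), the 3 highest and lowest regions, the 3 smallest p per direction among probes, and the 2 highest and lowest probes. Alternatives were no filter, an IP filter, normexp (offset 50), other centring, the series table, session or slide as a block, each session alone, medians, 1 probe per region, unnamed probes added, and leaving out each bull.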

Additional observations from a re-analysis of the deposited data

How the results depend on the processing

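No factor region or probe was called between subfertile and high-fertile bulls under the alternatives that keep more than 1 bull per group. With 1 bull left out, 0 to 0 were called. Those alternatives also called 0 over all regions and all probes. Each session alone leaves 1 bull in a fertility group, so only sizes of difference are given for it. The block by slide left the differences as they were because both groups were spread alike over the slides. It could not move them. The block by session moved those of FOXC2, TBX21, OLIG1 and ATOH1 to 0.15, 0.11, 0.08 and 0.01. With 1 bull left out, OLIG1 ranged from 0.12 (without high-fertile bull 3) to 0.50 and TBX21 from 0.18 (without subfertile bull 1) to 0.43, both highest without high-fertile bull 5. With normexp the printed KLF11 probe differed by 0.10 and the KLF6 probe by 0.23. No paired analysis was possible because the groups share only 1 replicate number, 5, which names different bulls. In the later session alone the difference turned to -0.087 for FOXC2, -0.0052 for OLIG1, -0.040 for ATOH1, 0.31 for GATA3 and 0.13 for the ID2 probe. In the first session alone NEUROD1 turned to 0.019, and with unnamed probes added to 0.014. With 1 bull left out ATOH1 ranged from -0.060 (without high-fertile bull 2) to 0.296. The number of factor regions called between sessions was 2 of 16, beside 153 of 737 over all regions. Centring over tested probes gave 1 of 16 (SOX14, lower), beside 108 of 737. Without the filter it was 7 of 31 (all lower), beside 1599 of 2791, of which 1529 were lower. Normexp gave 4 of 16 (GATA2, TBX21, FOXC2 and ATOH1, all higher), beside 290 of 737. GATA2 was higher in the later session by 0.63 with normexp (limma adjusted p = 0.0015). In the main fit its difference was 0.46 (limma adjusted p = 0.14), not past the threshold. The IP filter gave 2 of 7 (ATOH1 and TBX20), beside 95 of 271, and FOXC2 and OLIG1 had too few probes. Adding unnamed probes gave 7 of 34, beside 1015 of 2728. Without the filter FOXC2 differed by -0.020 and OLIG1 by 0.03, and with normexp OLIG1 by 0.20, not past the threshold. The correlation of CpG number and level across factor probes moved from -0.01 to -0.28 without the filter, where dim probes enter; the cause was not tested. The gap between the medians of factor regions and of all regions, taken in each bull and averaged over bulls, ran from -0.22 without the filter to -0.05 with unnamed probes; on means over 6 bulls the last was near 0. IP signal limits the first session most: 7 of 16 factor regions had at least 3 probes with IP above background on all arrays.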
